A study of Mus musculus with 8 samples.

Results

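The 9 genes described here bring amino acids into the cell, or pass the carbon of glutamine on to the TCA cycle, and were taken by symbol from the 28239 gene symbols of a count table for mouse regulatory T cells (Tregs). They are Slc7a5, Slc3a2, Slc1a5, Slc7a1, Slc7a6, Slc38a1, Slc38a2, Slc1a4 and Glud1, and each was listed once. The study asked how gene expression in Tregs differs without Alox15, a lipoxygenase that makes lipid mediators. Naive CD4+ T cells were taken from spleens of WT and Alox15-/- mice by immunomagnetic negative selection and cultured for 2 days with IL-2, TGF-β and beads that stimulate CD3 and CD28. RNA was profiled by MACE-seq, which counts tags near the 3′ ends of transcripts. There were 4 libraries of each genotype, KO1 to KO4 and WT1 to WT4 by their labels, from 4 mice per group. Both groups received the same cytokines and beads, and the labels give C57BL/6 as the strain background of both. According to the methods, the mice of the study were 10 to 12 weeks old and of both sexes, and the C57/Black6 and Alox15-/- mice came from different suppliers, so genotype and supplier cannot be told apart.

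Amino acid carriers of the plasma membrane are transporters or exchangers, and several work only as a pair of a light chain, which forms the channel for the amino acid, and a heavy chain, which takes the pair to the cell surface. A T cell that is stimulated through its antigen receptor raises its uptake of leucine, glutamine and arginine to feed protein synthesis, mTORC1 signaling and the TCA cycle. Glutamine that enters the cell is turned into glutamate, and glutamate dehydrogenase or aminotransferases then make α-ketoglutarate from it.

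Total counts per library ranged from 3723151 to 6952596 in the group labelled Alox15-/- and from 4810125 to 9538962 in the group labelled WT. Values are given as CPM, the count of a gene scaled to the size of its library, after scaling of the libraries by the TMM method of edgeR, and they were not divided by transcript length, so that the same gene is compared between libraries and different genes are not ranked against each other. The targeted gene went against its label. Alox15, which lies on the minus strand of chromosome 11 (GRCm38, chr11:70344152-70352031), stood at 63.7 to 70.5 CPM in the libraries labelled Alox15-/- and at 1.88 to 9.02 CPM in those labelled WT. This difference, 3.65 on the log2 scale (standard error 0.299), passed the quasi-likelihood test of edgeR, at a Benjamini-Hochberg adjusted p of 1.08e-05. The deleted part of the gene is not given in the sources used here, so a 3′ tag may lie outside it and check nothing. The sources do not settle whether the labels of the groups were exchanged, which would turn every fold change. Each direction below compares libraries labelled Alox15-/- with libraries labelled WT.

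All 9 genes were expressed in every library and passed the filter of at least 2 CPM in at least 4 libraries, which 12700 genes passed. None of the 9 passed the test for a difference between the groups. By the quasi-likelihood test of edgeR, Benjamini-Hochberg adjusted over all genes tested, 0 of 9 were past an adjusted p of 0.05, and adjusted p-values ran from 0.774 to 0.971. Of all genes tested, 158 (1.24%) were past this threshold, 133 of them (1.05% of the genes tested) higher in the libraries labelled Alox15-/-. At an unadjusted p under 0.05 the count was again 0 of 9, against 996 of all genes tested (7.84%), and DESeq2 and limma-voom also called 0 of 9. The groups overlapped for every one of the 9, whereas they did not overlap for 667 of all genes tested (5.25%). Of the 9, 3 had a higher and 6 a lower estimate in the libraries labelled Alox15-/-, and the median log2 fold change was -0.05, beside -0.0075 over all genes tested.

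The 95% intervals show what sizes of change these libraries leave possible. They reached from -0.50 to 0.36 on the log2 scale over the 9 genes, and all 9 intervals lay inside a 1.5-fold change in either direction (0.58 on the log2 scale). In the fit, libraries of the same group varied with a biological coefficient of variation of 14.5%. Since the RNA came from bulk cultures, fewer cells of a type and less RNA per cell cannot be told apart, and the p-values measure only the spread between these 8 libraries.

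**Figure D1:**
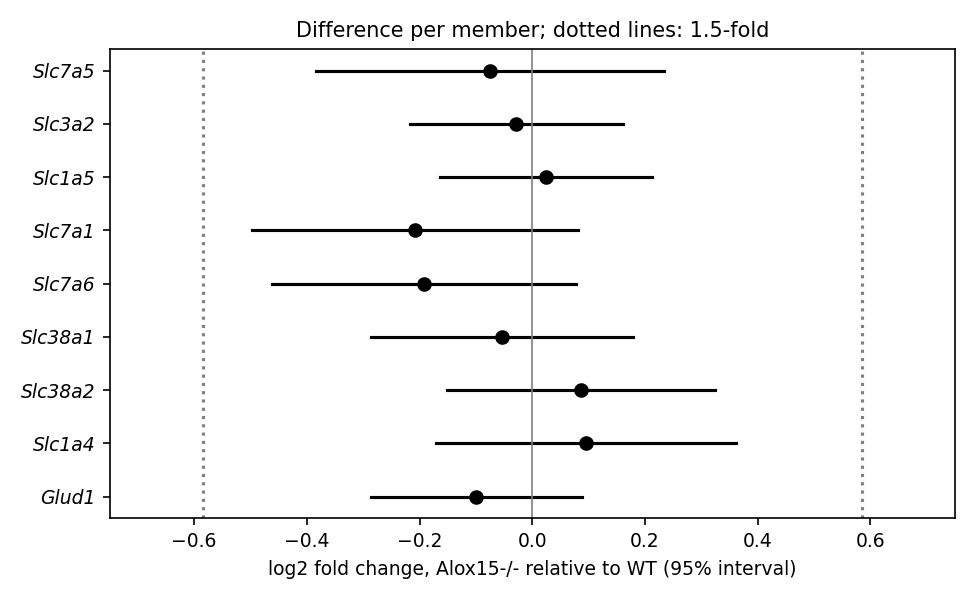
Log2 fold change of each of the 9 genes between the 4 libraries labelled Alox15-/- and the 4 labelled WT (point) with its 95% interval from edgeR's quasi-likelihood fit (line); dotted lines mark a 1.5-fold change. Every interval includes 0 and ends inside the dotted lines, from -0.50 for Slc7a1 to 0.36 for Slc1a4.

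The first pair carries large neutral amino acids. Slc7a5 encodes LAT1, the light chain that imports leucine and other large neutral amino acids in exchange for glutamine, and lies on the minus strand of chromosome 8 (ENSMUSG00000040010.10, chr8:121881150-121907694, GRCm38). It stood at 225, 264, 189.7 and 154 CPM in KO1 to KO4 and at 222, 237, 234 and 182 CPM in WT1 to WT4. KO2 was the highest and KO4 the lowest of the 8 libraries, and the WT libraries lay between them. The means were 208 ± 47.3 CPM against 219 ± 25.0 CPM in WT (SD, n = 4 each), with a log2 fold change of -0.07 (standard error 0.145, 95% interval -0.38 to 0.23, edgeR adjusted p = 0.940). Of the 9 genes, Slc7a5 had the largest coefficient of variation in the libraries labelled Alox15-/-, at 22.7%.

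Slc7a5 is the only one of the 9 whose span is shared with another annotated gene. It lies wholly inside Gm20388, a gene model on the opposite strand that covers chr8:119910841-124345722 and was counted at 2639 CPM in the libraries labelled Alox15-/- and 2534 CPM in those labelled WT (log2 fold change 0.06, edgeR adjusted p = 0.933). Whether the counting used the strand is not given in the sources used here, so reads of the overlapping models cannot be told apart.

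Slc3a2 encodes CD98hc, the heavy chain with which LAT1 and several other light chains reach the membrane, and lies on the minus strand of chromosome 19 (ENSMUSG00000010095.13, chr19:8706882-8723369). Its level was 298, 306, 286 and 262 CPM in KO1 to KO4, and 297, 289, 295 and 293 CPM in WT1 to WT4. The WT libraries were within a narrow band and inside the range of the libraries labelled Alox15-/-, of which KO4 was again the lowest. The means of 288 ± 19.3 and 294 ± 3.44 CPM (SD, n = 4 each) differed by -0.03 on the log2 scale (standard error 0.0886, 95% interval -0.22 to 0.16, edgeR adjusted p = 0.968). The Slc7a5 count per Slc3a2 count was 0.717 ± 0.119 in the libraries labelled Alox15-/- and 0.745 ± 0.0864 in those labelled WT (SD, n = 4 each), a difference smaller than either SD.

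Slc7a6 encodes y+LAT2, another light chain of CD98hc, which exchanges cationic amino acids such as arginine for neutral ones such as glutamine (plus strand of chromosome 8, ENSMUSG00000031904.5, chr8:106168857-106198706). KO1 to KO4 held 42.5, 37.2, 47.1 and 36.0 CPM, and WT1 to WT4 held 38.7, 49.0, 47.6 and 50.6 CPM. KO4 and KO2 were the lowest libraries, while KO3 lay just below the upper 3 WT libraries and WT1 between KO2 and KO1. The log2 fold change was -0.19 (standard error 0.127, 95% interval -0.46 to 0.08, edgeR adjusted p = 0.779).

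Slc7a1 encodes CAT1, the carrier that imports arginine and lysine without a heavy chain, and lies on the minus strand of chromosome 5 (ENSMUSG00000041313.14, chr5:148327410-148399904). It showed the largest estimate of the 9, with 192, 190.0, 176 and 131 CPM in KO1 to KO4 and 192, 202, 164 and 237 CPM in WT1 to WT4. KO4 was the lowest and WT4 the highest library, and the other 6 lay within 164 to 202 CPM. The means were 172 ± 28.5 and 199 ± 30.3 CPM (SD, n = 4 each), with a log2 fold change of -0.21 (standard error 0.136, 95% interval -0.50 to 0.08, edgeR adjusted p = 0.774). Without KO4 the estimate was -0.09.

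**Figure D2:**
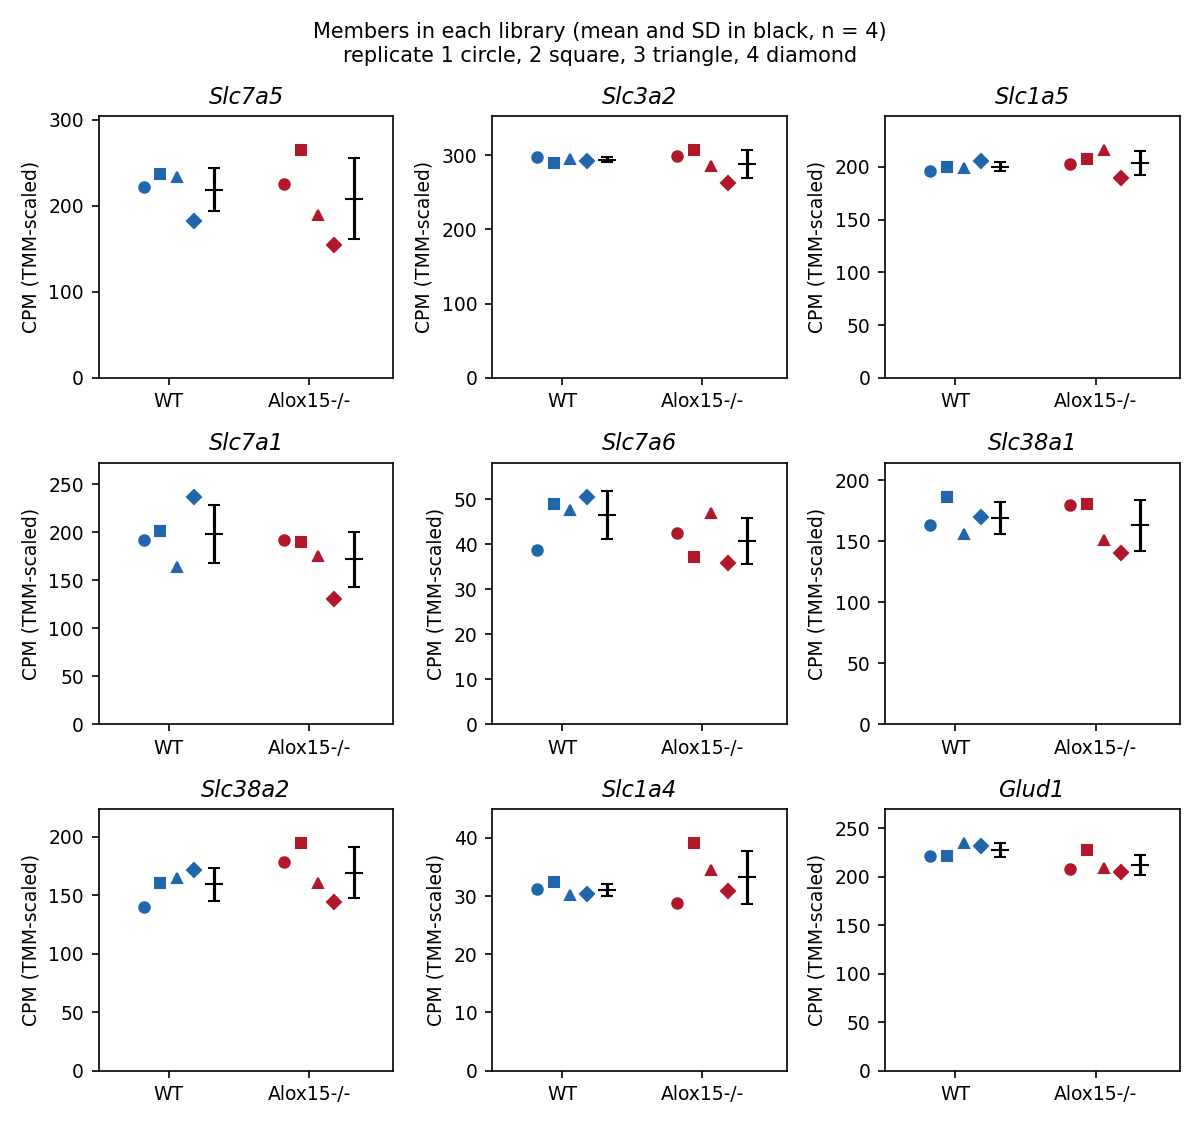
CPM (TMM-scaled, vertical axis from 0) of each of the 9 genes in the 4 libraries labelled WT (blue) and the 4 labelled Alox15-/- (red); symbols give the replicate number, and black bars give mean and SD. The groups overlap in every panel, and KO4 (red diamond) is the lowest library in 7 of the 9 panels, for example at 154 CPM for Slc7a5 and 131 CPM for Slc7a1.

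The carriers of glutamine and of small neutral amino acids come next. Slc1a5 encodes ASCT2, a sodium-dependent exchanger through which glutamine enters activated T cells (plus strand of chromosome 7, ENSMUSG00000001918.17, chr7:16781340-16798274). Its level was 202, 207, 216 and 189 CPM in KO1 to KO4 and 196, 200.2, 199 and 205 CPM in WT1 to WT4. The WT libraries lay close together and inside the range of the other group. The log2 fold change was 0.02 (standard error 0.0884, 95% interval -0.16 to 0.21, edgeR adjusted p = 0.971).

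Slc38a1 and Slc38a2 encode SNAT1 and SNAT2, which import glutamine together with sodium, and they are neighbours on the minus strand of chromosome 15 (ENSMUSG00000023169.15, chr15:96571418-96642913, and ENSMUSG00000022462.7, chr15:96687392-96699730). Slc38a1 stood at 179.8, 181, 151 and 140.0 CPM in KO1 to KO4 and at 163, 186, 156 and 169 CPM in WT1 to WT4. Slc38a2 stood at 178, 195, 160.4 and 144 CPM in KO1 to KO4 and at 139.7, 161, 165 and 172 CPM in WT1 to WT4. For both genes KO1 and KO2 were above KO3 and KO4, and the WT values lay across a similar range. The estimates had opposite signs, -0.05 for Slc38a1 (standard error 0.109, 95% interval -0.29 to 0.18) and 0.09 for Slc38a2 (standard error 0.111, 95% interval -0.15 to 0.32), and edgeR gave adjusted p-values of 0.943 and 0.901.

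Slc1a4 encodes ASCT1, an exchanger of alanine, serine and cysteine, and is on the minus strand of chromosome 11 (ENSMUSG00000020142.12, chr11:20302180-20332713), 50 Mb from Alox15. It was counted at 28.7, 39.1, 34.4 and 30.8 CPM in KO1 to KO4 and at 31.2, 32.4, 30.2 and 30.4 CPM in WT1 to WT4. KO2 and KO3 exceeded every WT library, and KO1 was the lowest of the 8. The log2 fold change was 0.10 (standard error 0.125, 95% interval -0.17 to 0.36, edgeR adjusted p = 0.905), with SDs of 4.54 CPM in the libraries labelled Alox15-/- and 0.983 CPM in those labelled WT.

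Several carrier genes are induced by the transcription factor ATF4 when amino acids run short and by Myc after activation, so the start regions of the 9 genes were searched for the letters TGATGNAA (the core of the composite site of C/EBP and ATF4) and CACGTG (the E-box that Myc can bind), on both strands. Promoter windows from RefSeq (GRCm38.p6, 250 bases before to 50 bases after the start) matched 6 of the 9 genes with 8 windows. Slc7a5, Slc1a5 and Slc38a1 had no window in the table. CACGTG was in 0 of the 8 windows and in 7.15% of all 32851 windows. TGATGNAA was in 1 of the 8, that of Slc1a4, and in 3.97% of all windows. The Slc1a4 window (chr11:20332664-20332963, minus strand) is shown because it holds this match, which is in capitals as it reads on the strand of the gene, at bases 247 to 254 of the window and across the annotated start.
Slc1a4: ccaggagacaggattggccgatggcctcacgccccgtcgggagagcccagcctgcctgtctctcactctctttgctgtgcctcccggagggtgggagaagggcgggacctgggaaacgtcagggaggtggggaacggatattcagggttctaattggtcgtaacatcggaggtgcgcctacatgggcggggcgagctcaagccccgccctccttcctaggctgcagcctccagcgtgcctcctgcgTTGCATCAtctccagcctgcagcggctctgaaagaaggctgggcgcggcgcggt
A match is a description of the letters and not evidence of a bound factor, and the letters differ from the searched ones only because they are read from the other strand. A window without a match does not show that a gene lacks the site, since bases outside the windows were not searched. The 8 windows are too few to compare with the shares of all windows.

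Glud1 encodes mitochondrial glutamate dehydrogenase, which makes α-ketoglutarate from glutamate, and lies on the plus strand of chromosome 14 (ENSMUSG00000021794.16, chr14:34310727-34345265). Its level was 208, 228, 209 and 205 CPM in KO1 to KO4 and 222, 221, 235 and 232 CPM in WT1 to WT4. KO1, KO3 and KO4 were below every WT library, and KO2 lay among them. The means were 212 ± 10.5 and 227 ± 7.09 CPM (SD, n = 4 each), the log2 fold change was -0.10 (standard error 0.0879, 95% interval -0.29 to 0.09, edgeR adjusted p = 0.845), and a two-sided exact permutation test of the library values gave p = 0.0857, where no split of 4 against 4 libraries can go below 0.0286. The last 500 bases of Glud1 match the pseudogene Glud-ps with 97.7% identity over 256 bases, and at most 5 counts were assigned to Glud-ps in any library.

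The summed level of the 9 genes was 1292 to 1648 CPM in the libraries labelled Alox15-/- (1491 ± 151.5, SD, n = 4) and 1502 to 1577 CPM in those labelled WT (1544 ± 36.7, SD, n = 4). KO4 was the lowest of the 8 libraries for 7 of the 9 genes and for 11.8% of all genes tested. In the lists described below, it was the lowest for 8 of 22 glutamine and glutamate genes, 3 of 10 activation and Myc genes, 3 of 20 other carriers, 2 of 18 ATF4 response genes, 4 of 30 mTORC1 genes and 1 of 11 CD4 T cell and Treg markers. Its deviation from the mean of the 8 libraries was -27.8% for Slc7a5, -29.5% for Slc7a1 and -6.86% for Glud1. The deviation of KO2 was 23.8% for Slc7a5 and 21.6% for Slc1a4, but -14.7% for Slc7a6. With 6952596 counts KO4 was the deepest library of its group, and this pattern was noticed after the values were seen. Without KO4 the median log2 fold change of the 9 genes was 0.02, with 6 higher and 3 lower estimates, and 0 of 9 were called.

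**Figure D3:**
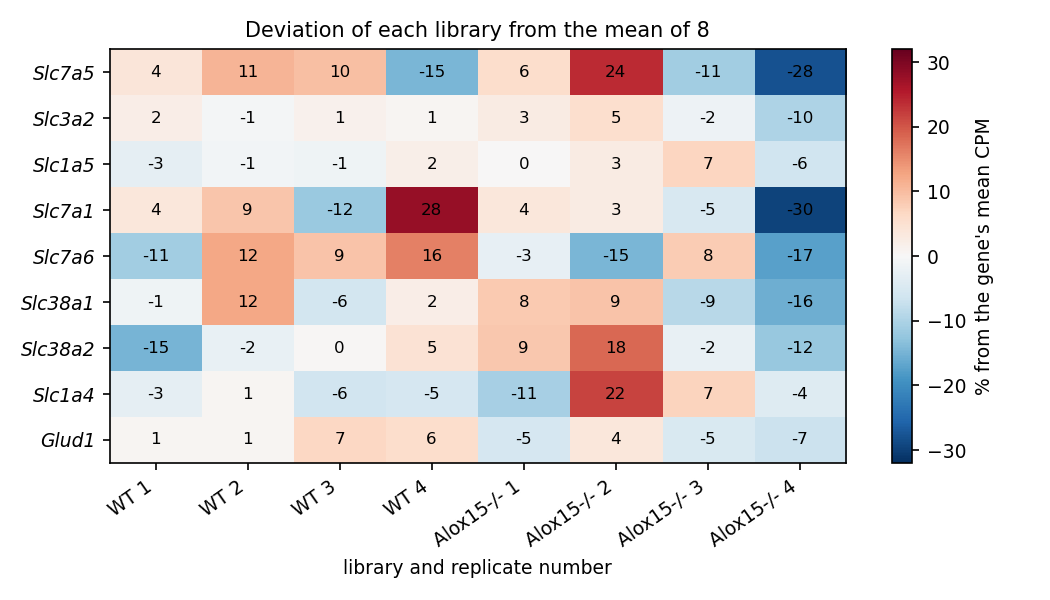
Percent deviation of each library (columns) from the mean CPM of the 8 libraries, for each of the 9 genes (rows), on a scale from blue (below) to red (above). The KO4 column is blue in every row, down to -29.5% for Slc7a1, whereas the WT columns and KO1 to KO3 hold both colors.

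Slc7a5 was compared with each other member across the libraries, and its heavy chain was the closest by Pearson r, whereas Slc38a1 was the closest by rank. Over the 8 libraries, log2 CPM of Slc7a5 and Slc3a2 had a Pearson r of 0.86 (exact permutation p = 0.00449, adjusted over 8 relations p = 0.0359) and a Spearman rho of 0.64 (exact permutation p = 0.0962, adjusted p = 0.385). Without the 2 libraries farthest from the median of Slc7a5, KO4 and WT4, r was 0.78. As each library was left out in turn, r stayed between 0.69 (without KO4) and 0.94 (without WT4), but the adjusted p of the exact permutation test was under 0.05 only without WT2 (0.0206) or WT4 (0.0381). It was 0.0619 without KO1, 0.205 without KO2, 0.114 without KO3, 0.552 without KO4, 0.0571 without WT1 and 0.0611 without WT3, so the call was lost in 6 of the 8. For Slc38a1 the values were an r of 0.75 (exact permutation p = 0.0320, adjusted p = 0.128) and a rho of 0.74 (exact permutation p = 0.0458, adjusted p = 0.367), and for the other 6 members r was between 0.06 and 0.53 with adjusted p-values of at least 0.417. A group of 4 libraries is too small for a correlation within it. With each value centred on its group mean, r between Slc7a5 and Slc3a2 was also 0.86 (permutation of the 8 centred values, adjusted p = 0.0653). That p is not exact, because centred values of a group depend on one another.

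**Figure D4:**
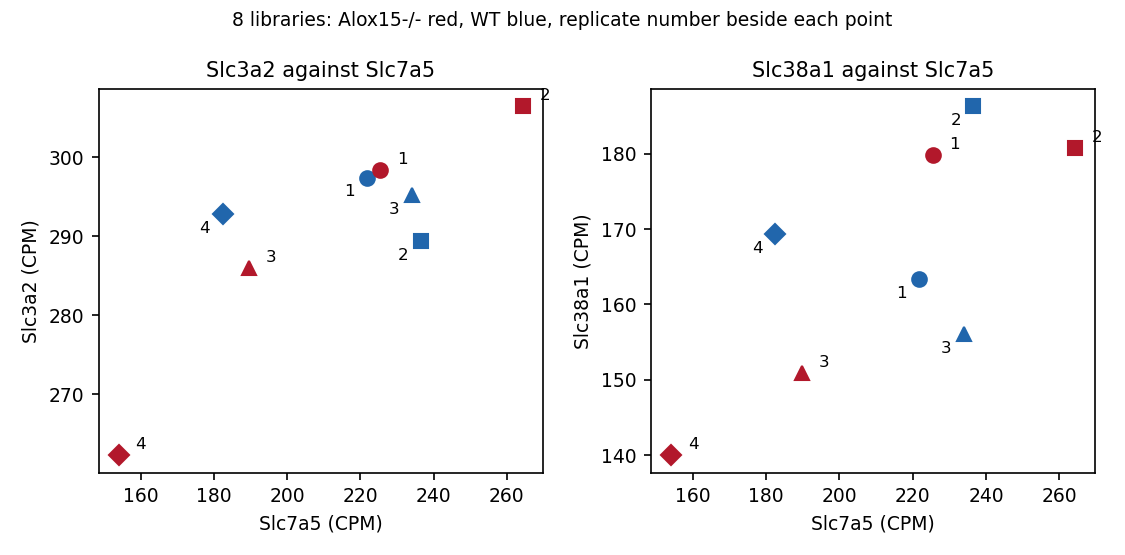
CPM of Slc3a2 (left) and of Slc38a1 (right) against CPM of Slc7a5 in the 8 libraries, red for those labelled Alox15-/- and blue for those labelled WT, with the replicate number beside each point; the axes do not start at 0. KO4 is at the lower left of both panels, with 154 CPM of Slc7a5, 262 CPM of Slc3a2 and 140.0 CPM of Slc38a1.

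Beyond the members, the tested genes whose log2 CPM, centred on the group means, followed Slc7a5 most closely over the 8 libraries were Anxa6 (r = 0.985), Gm43302 (0.985), Nck1 (0.984), Il12rb2 (0.983) and Arl14ep (0.982). The closest gene was Vprbp for Slc3a2 (r = 0.987), Pgk1 for Slc1a5 (0.958), Atg5 for Slc7a1 (0.974) and Noc2l for Slc7a6 (0.992). For Slc38a1 it was Snrnp40 (r = 0.976), for Slc38a2 Ric8b (0.973), for Slc1a4 Nudcd1 (0.981) and for Glud1 Cmas (0.966). For Slc7a5 these are the highest 5 and for each other member the highest of 12699 genes over only 8 libraries, and these values are a description.

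The carriers outside the 9 were examined as a list of 39 genes, 20 of which passed the filter. Among these, 11 had a higher and 9 a lower estimate, the median log2 fold change was 0.003, and 1 was called, Slc7a8, higher in the libraries labelled Alox15-/-, beside 1.05% of all genes tested. The gene with the next smallest p was Ctns, the lysosomal cystine exporter, at 4.57 ± 1.59 and 7.11 ± 0.637 CPM (SD, n = 4 each, log2 fold change -0.62, edgeR adjusted p = 0.536).

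Slc7a8 encodes LAT2, another light chain of CD98hc for neutral amino acids, and lies on the minus strand of chromosome 14 (ENSMUSG00000022180.7, chr14:54722209-54781946). Its level was 6.52, 8.96, 3.78 and 3.31 CPM in KO1 to KO4 and 1.25, 0.320, 0.706 and 0.420 CPM in WT1 to WT4. Every library labelled Alox15-/- was above every library labelled WT. These levels rest on 27, 33, 20 and 23 counts in KO1 to KO4 and on 8, 2, 7 and 2 counts in WT1 to WT4, and the gene passed the filter only through the libraries in which it was high. The log2 fold change was 2.93 (standard error 0.445, 95% interval 1.98 to 3.88, Benjamini-Hochberg adjusted p = 0.00177, edgeR). Per Slc3a2 count there were 0.0192 ± 0.00789 Slc7a8 counts in the libraries labelled Alox15-/- and 0.00229 ± 0.0014 in those labelled WT (SD, n = 4 each).

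**Figure D5:**
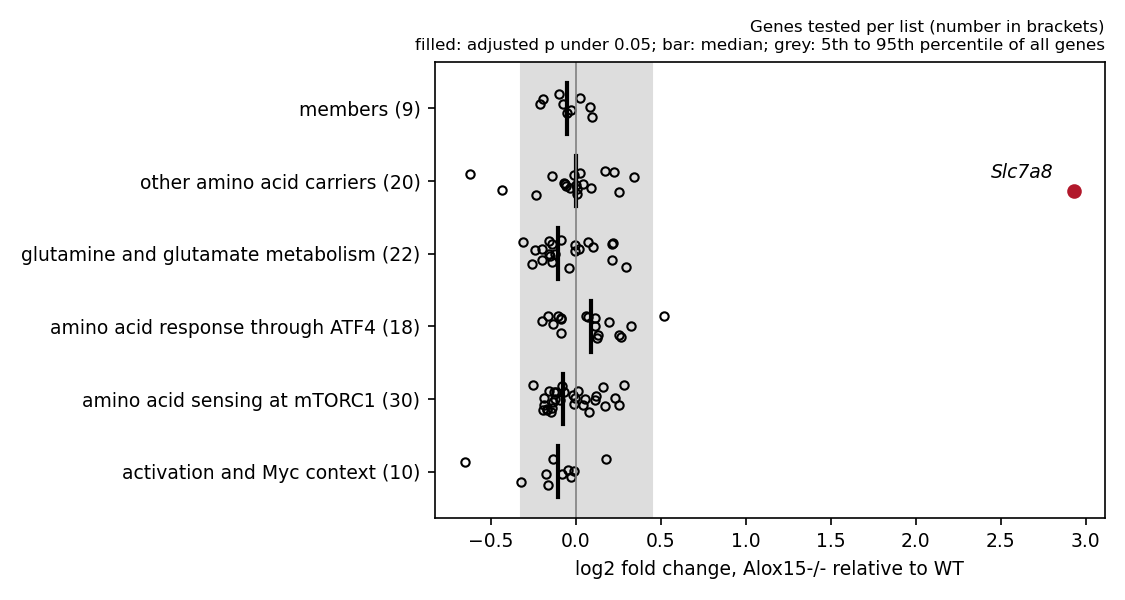
Log2 fold change (horizontal axis) of the tested genes in the 9 members and in 5 lists of related genes, with the number tested in brackets; open points missed and the filled point passed an adjusted p of 0.05, black bars are medians, and the grey band spans the 5th to 95th percentile of all genes tested, -0.32 to 0.45. Slc7a8 at 2.93 is the only filled point, and the members lie inside the band.

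The libraries labelled Alox15-/- also held more counts of markers of other cells, although negative selection of naive CD4+ T cells is meant to remove such cells. The summed level of 8 mast cell and basophil markers was 143 to 367 CPM in the libraries labelled Alox15-/- and 59.3 to 83.9 CPM in those labelled WT, and 7 of the 8 were called higher, beside 1.05% of all genes tested. For 10 myeloid markers the sums were 48.6 to 331 and 11.3 to 19.3 CPM (5 of 6 tested called higher), for 9 erythroid markers 919 to 3501 and 40.0 to 128 CPM (5 of 6 called higher), and for 8 NK and γδ T cell markers 72.4 to 138 and 25.9 to 39.8 CPM (3 of 5 called higher). Of the markers tested, 5 of 8 mast cell and basophil, 5 of 6 myeloid, 1 of 6 erythroid and 1 of 5 NK and γδ T cell markers were under 2 CPM in some library labelled WT, so they passed the filter through the libraries labelled Alox15-/-, where they were high, and their counts of calls are no support. Each of these 4 sums was higher in all 4 libraries labelled Alox15-/- (exact permutation p = 0.0286, adjusted over 7 lists p = 0.05, the smallest p possible being 0.0286). Sums of 7 B cell markers were 212 to 310 and 208 to 303 CPM (exact permutation p = 1, 1 of 3 tested called, lower), and those of 2 CD8 T cell markers 12.1 to 21.9 and 21.5 to 31.8 CPM (exact permutation p = 0.0857, 0 of 2 called). Of all genes tested, 1.24% were called in either direction. Among the defining markers, Klf1, Cd22 and Ncr1 were at 0 in some libraries of both groups, Alas2, S100a9, Adgre1 and Ccr2 in some labelled WT and Pax5 and Klra8 in some labelled Alox15-/-. The part of these cells in the level of Slc7a8 was not tested. Without KO2 and KO3, the libraries with the most erythroid counts, 0 of the 9 members were called and Slc7a8 did not pass the filter. In a fit without those libraries that kept the genes chosen with all 8, the log2 fold change of Slc7a8 was 2.75. KO1 and KO4 still held 1102 and 919 CPM of erythroid markers, above the 40.0 to 128 CPM of the libraries labelled WT. This fit is thus no check on the part of these cells. KO2 had the highest summed erythroid, mast cell, myeloid or NK level in 3 of these 4 lists and was the highest library for Slc7a5, Slc3a2, Slc38a2 and Slc1a4, and the part of other cells in those values was not tested either.

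The labelled cell type was checked with 11 markers of CD4 T cells and Tregs, none of which was at 0 in any library. Their sum was 3274 to 3500 CPM in the libraries labelled Alox15-/- and 3418 to 3619 CPM in those labelled WT (exact permutation p = 0.0571, adjusted p = 0.08), and 0 of 11 were called, beside 1.24% of all genes tested. Estimates were higher for 4 and lower for 7 of them. At an unadjusted p under 0.05 were Cd3g, a chain of the T cell receptor complex (log2 fold change 0.31, edgeR adjusted p = 0.296), and Cd4, the co-receptor (log2 fold change -0.32, edgeR adjusted p = 0.357), and these were also the 2 of 11 whose groups did not overlap, beside 7.84% and 5.25% of all genes tested. Foxp3, the transcription factor that defines Tregs, stood at 93.4 ± 17.1 and 125 ± 47.4 CPM (SD, n = 4 each, log2 fold change -0.42, edgeR adjusted p = 0.655).

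Enzymes and mitochondrial carriers that use glutamine and glutamate were read next to Glud1. Of 23 listed genes 22 were tested, 7 had a higher and 15 a lower estimate, the median log2 fold change was -0.10, and edgeR called 0, beside 1.24% of all genes tested, with 1 at an unadjusted p under 0.05 (7.84% of all genes tested). That gene was Cad, which starts pyrimidine synthesis from glutamine, at 140.3 ± 21.8 CPM against 168 ± 17.8 CPM in WT (SD, n = 4 each, log2 fold change -0.25, edgeR adjusted p = 0.637). Asns, the synthetase that makes asparagine from glutamine, was next, with 201 ± 22.5 and 237 ± 32.7 CPM (SD, n = 4 each, log2 fold change -0.24, edgeR adjusted p = 0.655).

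The response to a lack of amino acids through ATF4 was followed in 19 genes. Among the 18 tested, 11 had a higher and 7 a lower estimate, and the median log2 fold change was 0.09. By edgeR 0 were called, beside 1.24% of all genes tested. At an unadjusted p under 0.05 was 1 of the 18, beside 7.84% of all genes tested. Cebpb, a transcription factor of this response, was at 38.4 to 64.1 CPM in the libraries labelled Alox15-/- and at 19.5 to 37.5 CPM in those labelled WT, and was the 1 of 18 whose groups did not overlap, beside 5.25% of all genes tested (log2 fold change 0.52, edgeR adjusted p = 0.475). Ddit3, which encodes CHOP, was at 24.4 ± 5.66 and 19.5 ± 4.24 CPM (SD, n = 4 each, log2 fold change 0.32, edgeR adjusted p = 0.738). Atf4 itself was at 476 ± 18.4 and 456 ± 40.4 CPM (SD, n = 4 each, log2 fold change 0.06, edgeR adjusted p = 0.914), and was named after its values were seen.

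The supply of imported leucine and arginine is signaled to mTORC1 at the lysosome, and 30 genes of this machinery were all tested. Estimates were higher for 11 and lower for 19 of them, with a median log2 fold change of -0.07. By edgeR 0 were called, beside 1.24% of all genes tested. At an unadjusted p under 0.05 were 2 of the 30, beside 7.84% of all genes tested. These were the Ragulator subunits Lamtor4 (log2 fold change 0.29, edgeR adjusted p = 0.534) and Lamtor2 (log2 fold change 0.26, edgeR adjusted p = 0.635), which hold the Rag GTPases at the lysosome. Lamtor4 was at 44.4 to 52.7 CPM in the libraries labelled Alox15-/- and at 34.0 to 44.1 CPM in those labelled WT, and Lamtor2 at 50.2 to 52.8 and 34.0 to 48.8 CPM, so that the groups did not overlap for 2 of 30, beside 5.25% of all genes tested.

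Genes of T cell activation and Myc, which drive the carriers after stimulation, gave 10 tested of 12 listed. Of these 1 had a higher and 9 a lower estimate, the median log2 fold change was -0.11, and edgeR called 0, beside 1.24% of all genes tested, with 0 at an unadjusted p under 0.05, beside 7.84%. Nfatc1, a factor activated downstream of the T cell receptor, had the smallest p, with 47.7 to 57.9 CPM in the libraries labelled Alox15-/- and 52.9 to 91.9 CPM in those labelled WT (log2 fold change -0.32, edgeR adjusted p = 0.681). Max, the partner of Myc, was at 121 ± 5.68 and 106 ± 21.3 CPM (SD, n = 4 each, log2 fold change 0.18, edgeR adjusted p = 0.806).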

How the data were processed

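RNA from 4 libraries labelled Alox15-/- and 4 labelled WT was analysed from the table of raw counts per gene symbol that the authors deposited without normalization. The submitters' processing notes name Bowtie, edgeR and GRCm38 without versions, the labels describe trimmed reads and name a small RNA kit, and the methods name the MACE-Seq kit. The counting tool, its use of strand and any step against duplicate reads are not given in the sources used here. Columns were assigned to libraries by name.

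Genes that reached 2 CPM in 4 or more libraries (12700 of 28239) were tested with edgeR 4.0.16 in R 4.3.3 (TMM scaling, glmQLFit and glmQLFTest, two-sided, group as the only term), with Benjamini-Hochberg adjustment over all genes tested and a threshold of 0.05, because the methods name edgeR, this filter and this adjustment. The standard error is the log2 fold change divided by the square root of F. Exact permutation tests, two-sided, used log2(CPM + 1), on sums for marker lists. Total counts were between 3723151 and 9538962 per library, and counting error is part of the spread between libraries. Gene positions are those of GENCODE for GRCm38, and matches of 3′ ends (at least 250 of 500 bases) from blastn 2.17.0.

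The members and lists were chosen with earlier results of these data known. Named genes are the members, Alox15, the genes past the threshold and the 2 of smallest unadjusted p in each pathway list, the genes most like each member, and markers. The steps were tested on simulated data. Alternatives were DESeq2 size factors, upper quartile scaling, other filters (none, filterByExpr, at least 10 counts in every library), DESeq2 1.42.0, limma-voom (limma 3.58.1), a robust fit, a replicate block, each library left out in turn, and a pseudocount of 0.1. Leaving out KO replicates 2 and 3 together, and all alternatives for Slc7a8, were added after seeing the data.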

Additional observations from a re-analysis of the deposited data

How the results depend on the processing

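Under all 18 alternatives 0 of the 9 members passed the threshold, and their median log2 fold change stayed between -0.10 (without KO replicate 2) and 0.02 (without KO replicate 4). Of 162 fold changes of single members, 157 kept their direction and 2 had an unadjusted p under 0.05, both of Slc7a1 (without WT replicate 3 and without a filter). The 5 that changed sign came without KO replicate 4 for Slc7a5, Slc3a2 and Slc38a1, whose values ranged from -0.207 to 0.0490, -0.0567 to 0.0163 and -0.105 to 0.0152 as each library was left out, and for Slc1a5 (-0.0308) and Slc1a4 (-0.0548) without KO replicates 2 and 3 together. The other members kept their sign as each library was left out, from 0.0013 to 0.0598 for Slc1a5, -0.287 to -0.0931 for Slc7a1, -0.269 to -0.131 for Slc7a6, 0.0158 to 0.159 for Slc38a2 and -0.132 to -0.0783 for Glud1, and Slc1a4 ran from 0.0168 without KO replicate 2 to 0.158 without KO replicate 1. The number of genes past the threshold moved from 158 to 388 without a filter, 100 with at least 10 counts in every library and 60 without KO replicates 2 and 3, and ran from 86 to 172 as single libraries were left out (95, 86 and 93 without KO replicates 1, 2 and 3, and 105 without WT replicate 2). With fewer samples or genes tested the count can change by construction, and the cause was otherwise not tested.

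Replicate numbers did not pair the libraries, as same-numbered libraries correlated at 0.07, 0.18, -0.20 and -0.02. With a replicate block 146 genes and 0 members were called, with a median of -0.06, and 1 of 4 libraries labelled Alox15-/- correlated best with its own number.

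Of the 8 relations of Slc7a5, 1 passed an adjusted p of 0.05, but 0 did with DESeq2 size factors and 0 with values centred on group means, where r with Slc7a6 was -0.0535. The log2 fold change of Slc7a8 ran from 2.64 to 3.34 over 17 alternatives and was called in each, but 5 of these kept it only because the genes were chosen with all 8 libraries. Under the filter itself it was not tested when a KO replicate was left out or with at least 10 counts in every library, and counts of 2 to 33 limit its precision. The direction of Alox15 held throughout. The 95% intervals give the changes of the members that these 8 libraries leave possible, and the smallest change they could detect was not examined.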
